A study of Mus musculus with 12 samples.

Results

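The prostaglandin and leukotriene genes described here are the cyclooxygenases Ptgs1 and Ptgs2, the synthases Ptges and Tbxas1, the prostaglandin-degrading enzyme Hpgd, the leukotriene genes Alox5, Alox5ap and Ltc4s, and the receptor gene Ptger4. They were taken by symbol from the normalized count tables, and all 9 were found among the 16516 symbols listed in any table. Mouse bone marrow-derived macrophages were sequenced for RNA in 4 groups of 3 libraries: MGMT knockout (KO) cells under DMXAA, KO cells under the vehicle DMSO, wild-type (WT, labelled WTfl/fl) cells under DMXAA, and WT cells under DMSO. DMXAA is an agonist of mouse STING, the adaptor that relays cytosolic DNA sensing. Both agents were applied for 24 h, and the series text prints DMXAA at 10 mg/ml, a unit that may be a slip and could not be checked here. MGMT repairs DNA by taking alkyl groups off guanine. The labels name no Cre driver, allele or animal age, and leave it unsaid whether libraries within a group are different animals, so p-values cover the spread between libraries alone.

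Prostaglandins, thromboxane and leukotrienes are short-lived lipid signals made from arachidonic acid, which phospholipases cut from membranes. Cyclooxygenases turn it into the precursor from which Ptges makes prostaglandin E and Tbxas1 makes thromboxane, and Hpgd oxidises prostaglandins and so ends their action. In the other arm, 5-lipoxygenase (Alox5), helped by the membrane protein FLAP (Alox5ap), makes the unstable leukotriene A, which Ltc4s joins to glutathione to give the cysteinyl leukotrienes. Macrophages are known as a source of both families, and Ptger4 encodes EP4, a receptor through which prostaglandin E raises cyclic AMP.

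Depth was 79.5 to 98.1 M reads (M, mega) per library. The KO libraries under DMXAA held 94.1 to 98.1 M reads, the other groups 79.5 to 93.9 M reads. Mgmt itself had 51, 61 and 33 reads in KO under DMXAA and 107, 85 and 99 in WT under DMXAA. Under DMSO it had 121, 141 and 162 reads in KO and 263, 245 and 243 in WT. Mgmt was thus lower in KO but not absent, with log2 differences of -1.11 (SE 0.247, adjusted p = 9.05e-03) under DMXAA and -0.83 (SE 0.166, adjusted p = 5.66e-03) under DMSO. All 8 macrophage markers had reads in every group. Their summed level was 9396 to 9486 reads per M listed reads (RPM) in KO under DMXAA, 16736 to 17543 in KO under DMSO, 11477 to 11719 in WT under DMXAA and 20594 to 21044 in WT under DMSO.

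The promoter windows of 4 members are shown because their transcripts behaved differently: Hpgd fell most of the members under DMXAA, Ptges was the member that rose in both genotypes, and Ptgs2 and Tbxas1 fell in WT but did not pass the test in KO. Each window is 250 bases before to 50 after the RefSeq start (RefSeq, GRCm38.p6, the mm10 assembly), and 8 of the 9 members matched the promoter table. Capitals mark motif matches; a window with no capitals holds none of the motifs searched.
Hpgd (chr8:56294302-56294601, plus strand): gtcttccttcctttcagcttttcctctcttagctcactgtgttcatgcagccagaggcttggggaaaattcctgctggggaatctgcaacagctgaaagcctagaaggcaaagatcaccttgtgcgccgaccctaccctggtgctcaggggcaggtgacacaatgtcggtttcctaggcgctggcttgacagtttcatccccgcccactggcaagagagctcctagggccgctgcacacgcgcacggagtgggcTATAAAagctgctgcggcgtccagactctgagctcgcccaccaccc
Ptges (chr2:30903248-30903547, minus strand): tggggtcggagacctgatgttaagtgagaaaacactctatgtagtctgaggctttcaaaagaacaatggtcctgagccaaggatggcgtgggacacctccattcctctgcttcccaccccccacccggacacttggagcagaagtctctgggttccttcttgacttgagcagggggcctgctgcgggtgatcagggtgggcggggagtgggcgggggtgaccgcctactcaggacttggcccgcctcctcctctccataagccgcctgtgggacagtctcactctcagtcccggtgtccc
Ptgs2 (chr1:150099781-150100080, plus strand): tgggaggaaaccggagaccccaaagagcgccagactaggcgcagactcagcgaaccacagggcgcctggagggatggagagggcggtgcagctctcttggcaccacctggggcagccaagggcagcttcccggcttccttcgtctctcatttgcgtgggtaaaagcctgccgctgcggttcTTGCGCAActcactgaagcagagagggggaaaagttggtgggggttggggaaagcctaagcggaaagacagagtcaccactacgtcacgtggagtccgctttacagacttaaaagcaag
Tbxas1 (chr6:38918736-38919035, plus strand): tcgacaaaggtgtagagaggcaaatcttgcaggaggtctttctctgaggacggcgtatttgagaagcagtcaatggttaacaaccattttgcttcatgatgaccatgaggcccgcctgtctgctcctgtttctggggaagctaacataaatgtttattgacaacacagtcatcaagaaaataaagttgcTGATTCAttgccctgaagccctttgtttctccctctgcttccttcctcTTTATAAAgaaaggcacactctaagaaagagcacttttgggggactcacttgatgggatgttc

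The motifs searched on both strands were TATAAA (the TATA box), TGANTCA (AP-1), TTNNGCAA (C/EBP), TGACGTCA (cAMP response element), TTCNNNGAA (gamma-activated site core), the interferon-stimulated response element core and a kappaB form. In Ptgs2 the capitals are a C/EBP match that begins 69 bases before the start. In Hpgd they are a TATA box that begins 29 bases before the GENCODE start of the gene, which lies downstream of the RefSeq start. In Tbxas1 they are an AP-1 match and a TATA box read on both strands, the matches overlapping each other; the RefSeq start of Tbxas1, like that of Ptges, lies inside the longer GENCODE gene. Among 32851 RefSeq windows of this length, 13.6% held TATAAA, 10.8% the C/EBP form, 7.81% the AP-1 form, 8.30% the gamma-activated site core, 3.44% the interferon-stimulated core, 1.79% the cAMP response element and 0.411% the kappaB form. None of the 8 member windows held the gamma-activated, interferon-stimulated, cAMP or kappaB letters. These matches are descriptions of letters, not of binding.

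The levels of the members, given in RPM per kilobase of exon (RPKM), spanned several orders of magnitude. Alox5ap was highest in each of the 4 groups, at 318.7 ± 10.3 RPKM in KO under DMXAA, 402.5 ± 10.0 in KO under DMSO, 282.1 ± 26.4 in WT under DMXAA and 394.7 ± 15.6 in WT under DMSO (SD, n = 3 each). It ranked 90 of 15777 genes in WT under DMSO. Its partner Alox5 was far lower, at 0.0288 ± 0.0184 RPKM in KO under DMXAA, 0.376 ± 0.0506 in KO under DMSO, 0.0157 ± 0.00599 in WT under DMXAA and 0.315 ± 0.0701 in WT under DMSO. In WT under DMSO the order below Alox5ap was Hpgd (19.4 RPKM), Tbxas1 (16.98), Ltc4s (16.81), Ptgs1 (6.98), Ptger4 (3.54), Ptgs2 (0.325), Alox5 (0.315) and Ptges (0.230). The libraries of Tbxas1 overlapped those of Ltc4s there, as did those of Ptgs2 and Alox5, while the other neighbours in the order were separated. The order depends on the annotated exon length, which is 9094 bases for Tbxas1 and 1683 for Hpgd. Without division by length, Tbxas1 (154 RPM) lay above Hpgd (32.7 RPM) in WT under DMSO. In WT under DMXAA, Hpgd stood at 0.263 RPKM, seventh in the order, with Tbxas1 (9.14), Ltc4s (3.96), Ptger4 (2.86), Ptgs1 (1.17) and Ptges (0.399) above it. KO under DMXAA had the same order, with Hpgd at 0.426 RPKM overlapping Ptges at 0.552 RPKM and Ptgs2 overlapping Alox5. In WT under DMXAA the libraries of Ltc4s overlapped those of Ptger4. In KO under DMSO, Ltc4s was second at 30.3 RPKM and Ptgs2 last at 0.0662 RPKM.

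**Figure D1:**
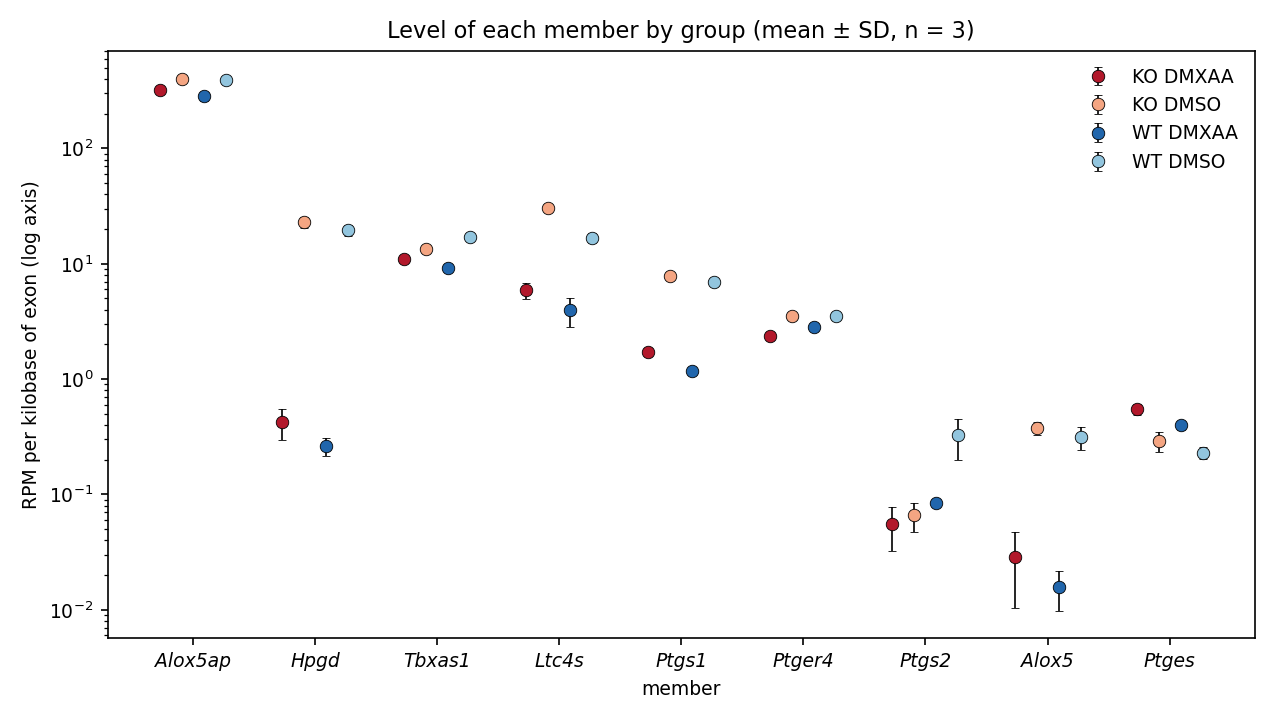
Level of each member in the 4 groups in RPKM on a log axis; points are means and bars the SD of 3 libraries. Alox5ap lies above all other members in each group, and Hpgd and Alox5 show the widest distance between DMXAA and DMSO.

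DMXAA moved most members in both genotypes. In KO, 6 of the 9 members passed the test (1 higher, 5 lower), and in WT 7 of 9 did (1 higher, 6 lower). The test is limma on log2 of the normalized count plus 1, with a Benjamini-Hochberg adjusted p below 0.05 over all tested genes. The whole transcriptome moved as widely, with 66.6% of 12704 tested genes called in KO and 62.8% of 12752 in WT, so the members' counts lie near the background. Of all tested genes, those called lower made up 32.9% in KO and 31.1% in WT, beside 5 of 9 members in KO and 6 of 9 in WT. Genes called higher made up 33.7% in KO and 31.7% in WT, beside 1 of 9 members in each. The median log2 change of the members was -0.18 in KO and -1.52 in WT, against -0.0033 and -0.0027 over all tested genes in the same comparisons. In bulk RNA, fewer cells of a type and less RNA per cell cannot be told apart. Normalized counts below come from the table that holds both groups compared, so they are set side by side only within a genotype here.

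**Figure D2:**
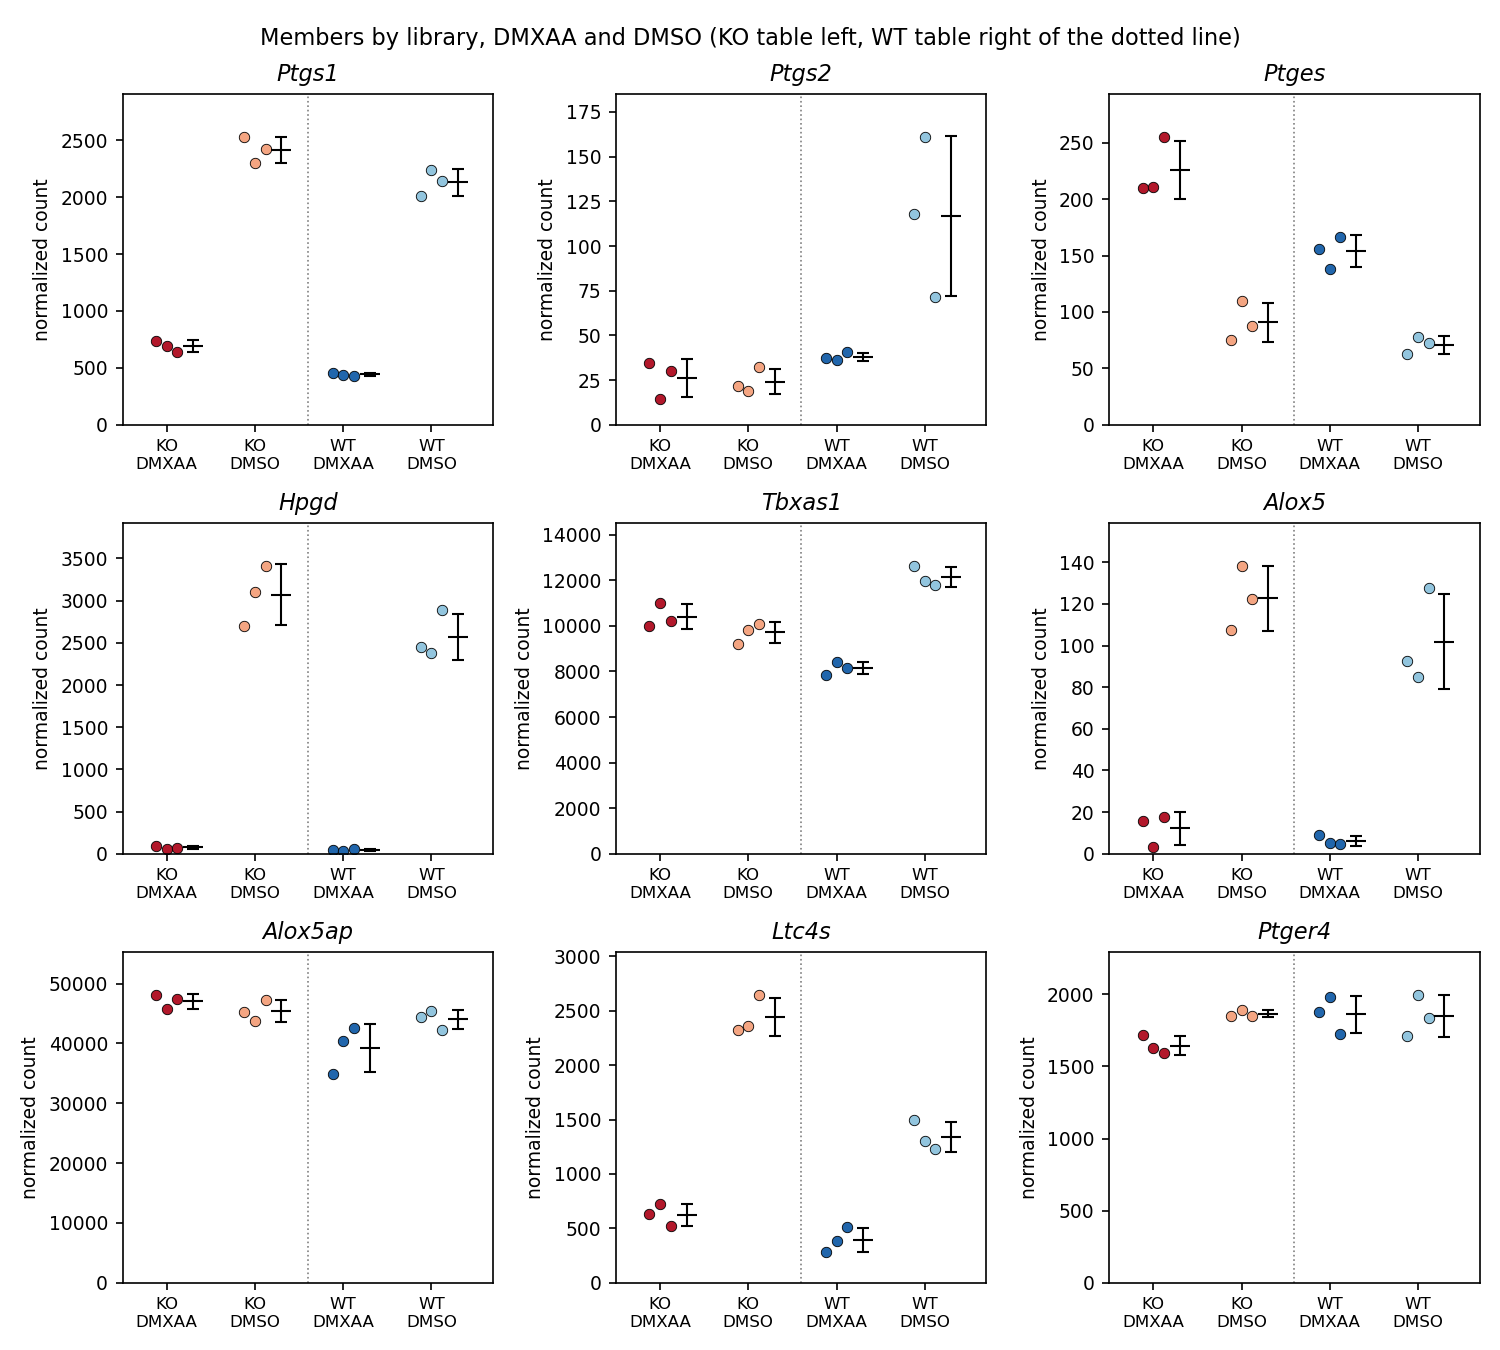
Normalized count of each member in every library (points), with the mean and SD of 3 libraries beside them; KO libraries, scaled in their own table, are left and WT libraries right of the dotted line. Hpgd, Alox5, Ltc4s and Ptgs1 are lower and Ptges higher in all DMXAA libraries than in all DMSO libraries of the same genotype, while Ptgs2 and Tbxas1 separate in WT.

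Among the cyclooxygenases, Ptgs1, the constitutive form also called COX-1 (chr2:36230426-36252272, plus strand, mm10), fell in both genotypes. KO libraries had 740.4, 694 and 640 normalized counts under DMXAA and 2531, 2301 and 2420.5 under DMSO. WT libraries had 456, 442 and 432 under DMXAA and 2009, 2241 and 2138 under DMSO. The groups did not overlap in either genotype. The log2 change was -1.81 in KO (SE 0.0753, adjusted p = 8.96e-09) and -2.26 in WT (SE 0.0732, adjusted p = 2.55e-09), a 3.50-fold and a 4.79-fold drop.

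Ptgs2, the inducible COX-2 (chr1:150100031-150108227, plus strand), is known as a gene that inflammatory signals switch on in macrophages. In neither genotype did it pass the test as higher under DMXAA. In WT it had 37.1, 36.2 and 40.4 normalized counts under DMXAA and 118, 161 and 71.3 under DMSO, so every DMXAA library lay below every DMSO library. The log2 change was -1.52 (SE 0.285, adjusted p = 1.01e-03). The KO libraries had 34.7, 14.2 and 30.0 under DMXAA and 21.5, 18.7 and 32.3 under DMSO, groups that overlap, with a log2 change of 0.06 (SE 0.404, adjusted p = 0.897). These values rest on few reads: 33, 13 and 27 in KO under DMXAA, 24, 22 and 32 in KO under DMSO, 33, 34 and 35 in WT under DMXAA, and 140, 190 and 72 in WT under DMSO. The high group is thus WT under DMSO, and the other 3 groups lie at 35 reads or fewer.

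Ptges, the inducible prostaglandin E synthase (chr2:30889471-30929863, minus strand), was the member that rose. The normalized counts in KO were 210.3, 211 and 255 under DMXAA and 75.2, 109 and 87.8 under DMSO. The counts in WT were 156, 138 and 166 under DMXAA and 62.3, 78.0 and 72.3 under DMSO. Every DMXAA library lay above every DMSO library of its genotype. The log2 change was 1.31 in KO (SE 0.173, adjusted p = 6.87e-05) and 1.11 in WT (SE 0.166, adjusted p = 2.26e-04), at 194 to 230 reads in KO and 130 to 144 reads in WT under DMXAA.

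Tbxas1, which encodes thromboxane synthase (chr6:38875404-39084585, plus strand), was the other terminal synthase. In KO it had 9997, 11025 and 10196 normalized counts under DMXAA and 9203, 9831 and 10102 under DMSO, groups that overlap (log2 change 0.10, SE 0.0539, adjusted p = 0.128). In WT it had 7862, 8395 and 8164 under DMXAA and 12642, 11965 and 11806 under DMSO, a separate and lower set (log2 change -0.58, SE 0.0490, adjusted p = 3.80e-06).

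Hpgd, the dehydrogenase that inactivates prostaglandins (chr8:56294585-56321043, plus strand), was almost lost under DMXAA. Normalized counts in KO were 97.8, 54.4 and 71.1 under DMXAA and 2695, 3100 and 3414 under DMSO. Counts in WT were 43.8, 35.1 and 50.9 under DMXAA and 2450.0, 2383 and 2884 under DMSO. The log2 change was -5.38 in KO (SE 0.184, adjusted p = 1.93e-09), a 41.7-fold drop, and -5.87 in WT, a 58.6-fold drop. From the lowest, Hpgd ranked 13 of 12704 tested genes in KO and 6 of 12752 in WT. It remained measurable at 50 to 93 reads in KO and 33 to 44 reads in WT under DMXAA.

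Ptger4 (chr15:5206661-5244187, minus strand) changed little. In KO it had 1715, 1625 and 1591 normalized counts under DMXAA and 1849, 1892 and 1852 under DMSO, a separate set with a small log2 change of -0.18 (SE 0.0588, adjusted p = 0.019). That call did not hold without KO DMSO replicate 2, KO DMXAA replicate 2 or KO DMXAA replicate 3 (adjusted p = 0.0518, 0.0507 and 0.068). In WT it had 1876, 1981 and 1724 under DMXAA and 1709, 1997.5 and 1839 under DMSO, which overlap (log2 change 0.01, adjusted p = 0.92). Ptger4 shares 82 exon bases with Ttc33 on the opposite strand, which had 2347 to 3475 reads. It also shares 1015 exon bases with the pseudogene Gm15937 on the opposite strand, which is not listed. The strand setting of the counting is not given in the sources used here.

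In the leukotriene arm, Alox5 (chr6:116410077-116461178, minus strand) fell in both genotypes. In KO it had 15.8, 3.27 and 17.8 normalized counts under DMXAA and 107, 138 and 122 under DMSO. In WT it had 8.99, 5.32 and 4.62 under DMXAA and 92.7, 84.8 and 128 under DMSO. The log2 change was -3.48 in KO (SE 0.502, adjusted p = 1.33e-04) and -3.84 in WT (SE 0.341, adjusted p = 5.24e-06). These rest on 3 to 16 reads per library in KO and 4 to 8 in WT under DMXAA, and on no fewer than 100 reads per DMSO library. In WT, Alox5 reached the minimum mean of 10 normalized counts for testing through the DMSO libraries.

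Alox5ap (chr5:149264767-149288153, plus strand) stayed at a high level. In KO it had 48147, 45709 and 47403 normalized counts under DMXAA and 45296, 43733 and 47261 under DMSO (log2 change 0.05, adjusted p = 0.297). In WT it had 34864, 40334 and 42569 under DMXAA and 44470.0, 45376 and 42314 under DMSO (log2 change -0.17, SE 0.0693, adjusted p = 0.0539). The groups overlapped in both genotypes. The WT value lay close to the threshold, and the call depends on the setting. It passed as lower with edgeR (adjusted p = 0.0425), DESeq2 (adjusted p = 0.0414), the same upper quartile (adjusted p = 4.37e-03), a pseudocount of 10 (adjusted p = 0.0496) and a minimum mean of 50 (adjusted p = 0.0487), and without WT DMXAA replicate 3 (-0.23, adjusted p = 0.0169). It did not pass with a pseudocount of 0.5, no filter or the replicate block, or without any other single library. The authors' deposited table gives an adjusted p of 0.0439.

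Ltc4s, the leukotriene C synthase (chr11:50236461-50238616, minus strand), fell with Alox5. KO libraries showed 633, 721 and 519.7 normalized counts under DMXAA and 2322, 2360 and 2647 under DMSO. WT libraries showed 286, 385 and 511 under DMXAA and 1495, 1299 and 1226 under DMSO. Neither genotype showed overlap, and the log2 change was -1.98 in KO (SE 0.112, adjusted p = 1.04e-07) and -1.80 in WT (SE 0.180, adjusted p = 1.27e-05).

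Directions near 0 depend on the scale. Setting each library to the same total moved the median change of all tested genes by -0.39 in KO and -0.32 in WT. On that scale, in KO, Alox5ap was lower at -0.34 (adjusted p = 2.27e-05) and Tbxas1 lower at -0.29 (adjusted p = 5.21e-04), and in WT Alox5ap was lower at -0.49 (adjusted p = 9.73e-05) and Ptger4 lower at -0.31 (adjusted p = 6.89e-03). Of the genes called, 20.3% in KO and 22.4% in WT were then higher, against 50.6% in KO and 50.5% in WT on the main scale. Ptges stayed higher on each scale tried.

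**Figure D3:**
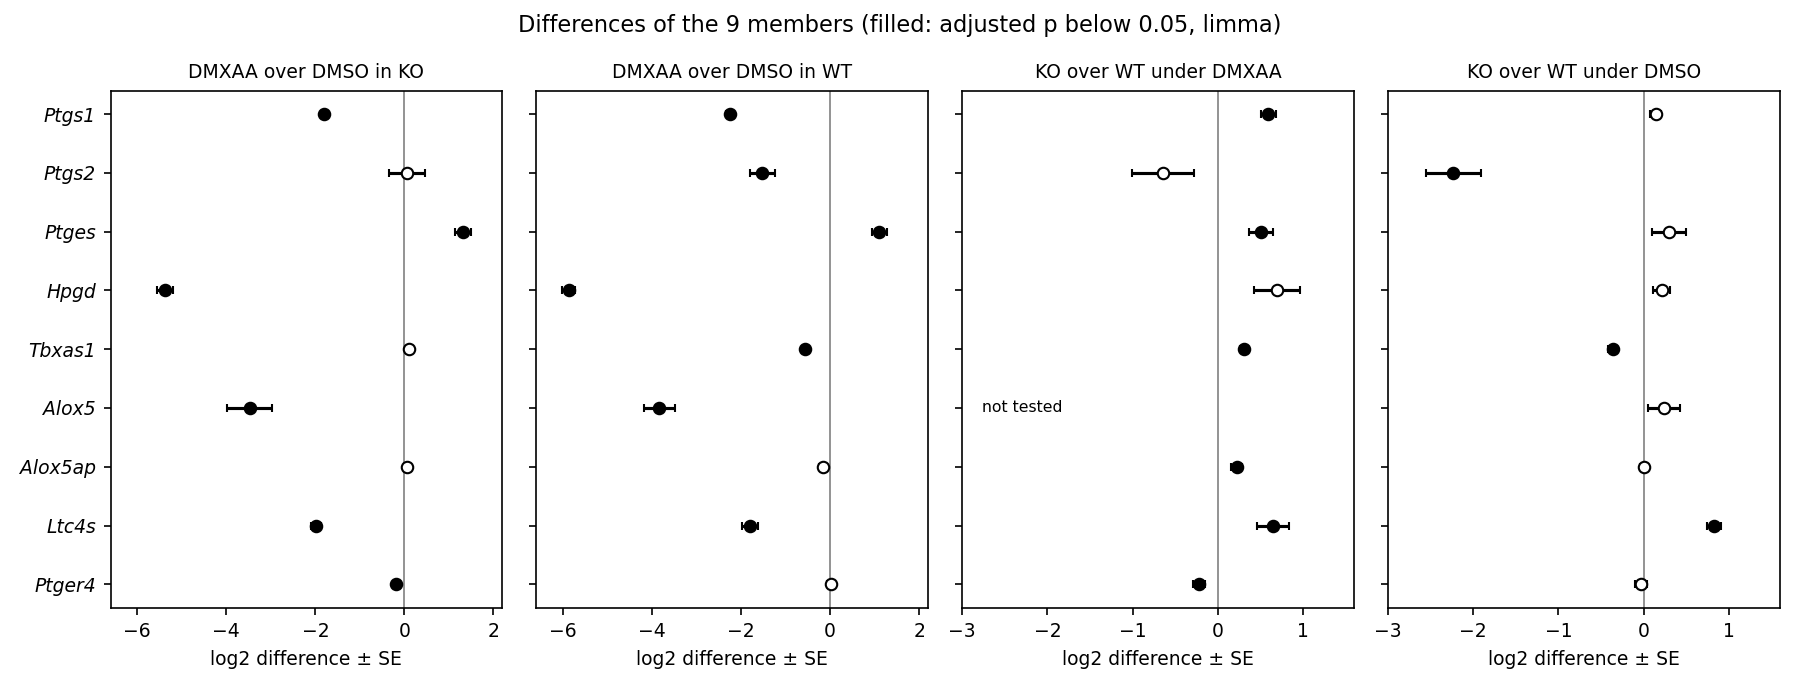
Log2 difference of each member in the 4 comparisons, with bars of 1 SE from the limma fit; filled points passed an adjusted p below 0.05. The 2 left panels show the DMXAA responses, from -5.87 for Hpgd in WT to 1.31 for Ptges in KO, and the 2 right panels the KO differences, on a narrower axis.

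Between the genotypes, KO over WT under DMXAA called 6 of the 8 members tested, against 21.5% of 12499 tested genes (10.7% higher, 10.8% lower). Ptgs1, Ptges, Tbxas1, Alox5ap and Ltc4s were higher in KO and Ptger4 was lower. Alox5 fell under the minimum mean of 10 and was not tested, with 15, 3 and 16 reads in KO and 8, 5 and 4 in WT. The calls of Ptgs1 and Tbxas1 held without each of the 6 libraries in turn. The call of Ptges did not hold without WT DMXAA replicate 1, WT DMXAA replicate 2 or KO DMXAA replicate 3, and that of Alox5ap not without WT DMXAA replicate 1, KO DMXAA replicate 1 or KO DMXAA replicate 3. The call of Ltc4s did not hold without WT DMXAA replicates 1 or 2 or KO DMXAA replicates 1 or 2, and that of Ptger4 not without WT DMXAA replicates 1 or 2 or KO DMXAA replicates 2 or 3. The number of members called was 2 without WT DMXAA replicate 1, 3 without WT DMXAA replicate 2, 3 without KO DMXAA replicate 3, and 4 without KO DMXAA replicates 1 or 2. With no filter on low values, Ltc4s (adjusted p = 0.0518) and Ptger4 (adjusted p = 0.0512) did not pass, and with the same total Alox5ap did not (adjusted p = 0.0566).

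Ptgs1 had 664, 620.0 and 572 normalized counts in KO and 422, 406 and 398 in WT under DMXAA, with no overlap (log2 difference 0.59, SE 0.0870, adjusted p = 7.98e-04). Tbxas1 had 8961, 9855 and 9116 in KO and 7269, 7716 and 7524 in WT under DMXAA, again apart (0.31, SE 0.0481, adjusted p = 1.12e-03). The other 4 differences were 0.51 for Ptges (adjusted p = 0.0256), 0.22 for Alox5ap (0.0264), 0.65 for Ltc4s (0.0323) and -0.22 for Ptger4 (0.0405). Hpgd, at 87.7, 48.7 and 63.5 in KO and 40.5, 32.3 and 46.9 in WT, did not pass the test (0.70, SE 0.271, adjusted p = 0.0944), although its groups did not overlap. Ptgs2, at 31.1, 12.7 and 26.8 in KO and 34.3, 33.3 and 37.3 in WT, did not pass it either (-0.64, SE 0.364, adjusted p = 0.255), with every KO library below every WT library.

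Under DMSO, 3 of the 9 members were called in KO over WT, against 16.6% of 12814 tested genes (7.04% higher, 9.58% lower). Ltc4s was higher in KO, and Ptgs2 and Tbxas1 were lower. Ptgs2 had 23.4, 20.4 and 35.1 normalized counts in KO and 132, 181 and 79.8 in WT, a 4.70-fold lower level (log2 difference -2.23, SE 0.319, adjusted p = 6.94e-04). The highest KO library lay below the lowest WT library, and Ptgs2 ranked 42 from the lowest of all genes tested. Tbxas1 had 10014, 10736 and 10972 in KO and 14161, 13423 and 13210.0 in WT (-0.36, SE 0.0551, adjusted p = 1.04e-03). Ltc4s had 2527, 2577 and 2874.5 in KO and 1674, 1458 and 1371 in WT (0.83, SE 0.0866, adjusted p = 9.22e-05). All 3 calls held without each library in turn. The other 6 members had log2 differences between -0.03 (Ptger4) and 0.30 (Ptges) and did not pass the test.

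**Figure D4:**
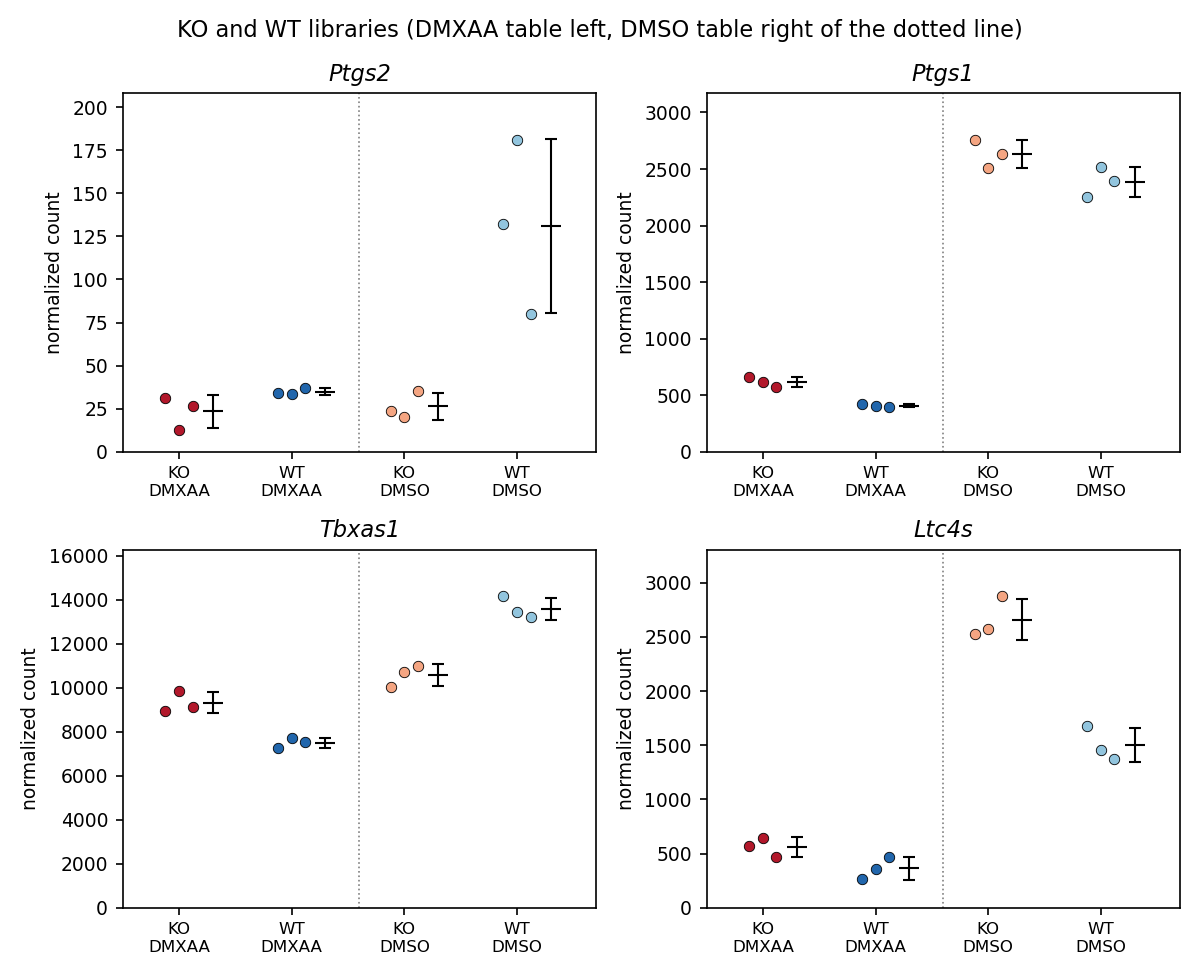
Normalized counts of Ptgs2, Ptgs1, Tbxas1 and Ltc4s in every KO and WT library (points), with mean and SD of 3 libraries; the DMXAA table is left and the DMSO table right of the dotted line. Tbxas1 is higher in KO than in WT under DMXAA and lower in KO than in WT under DMSO, and Ptgs2 is high in the WT libraries under DMSO.

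The difference between the 2 responses to DMXAA was tested as an interaction over the 12 libraries, and 2 of the 8 members tested passed it, against 8.97% of 12263 genes. Tbxas1 had an interaction of 0.67 (SE 0.0718, adjusted p = 4.77e-05) and Ptgs1 one of 0.45 (SE 0.102, adjusted p = 0.012), so both kept more of their level under DMXAA in KO than in WT. For Ptgs2 the interaction was larger but less certain, at 1.59 (SE 0.508, adjusted p = 0.0689). It passed with edgeR (1.76, adjusted p = 0.0429), with DESeq2 (1.76, adjusted p = 0.0233) and with a pseudocount of 10 (1.44, adjusted p = 0.0334). It also passed without WT DMSO replicate 3 (1.91, adjusted p = 0.0326) or without KO DMXAA replicate 2 (1.97, adjusted p = 0.0183). The interactions of Alox5ap (0.22, adjusted p = 0.132), Hpgd (0.49, 0.292), Ptger4 (-0.19, 0.264), Ptges (0.20, 0.686) and Ltc4s (-0.18, 0.736) did not pass the test; that of Alox5ap did so without WT DMXAA replicate 3 (0.28, adjusted p = 0.0462).

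The rest of the pathway was read from 7 lists of 66 symbols, of which 58 are listed in the tables. DMXAA in KO called 35 of the 45 tested (15 higher, 20 lower), against 66.6% of all tested genes. DMXAA in WT called 29 of 44 (12 higher, 17 lower), against 62.8%. For each list below, the shares of all tested genes to set beside its counts are 33.7% higher and 32.9% lower in KO. In WT they are 31.7% higher and 31.1% lower. A gene that is low in 1 group could reach the minimum mean of 10 through the other group alone, so these counts are read as descriptions of the genes tested. In the release and reacylation of arachidonate, 5 of 13 tested genes rose and 7 fell in KO, and 4 rose and 6 fell in WT. Pla2g4c, a cytosolic phospholipase A, rose to 272 ± 35.1 normalized counts under DMXAA, against 9.73 ± 7.05 under DMSO, in KO (SD, n = 3 each), where it reached the minimum mean through the DMXAA libraries. In WT it stood at 309 ± 34.0 under DMXAA and 21.0 ± 6.22 under DMSO (log2 change 5.01 in KO and 3.86 in WT, adjusted p = 1.87e-05 and 3.91e-07). Pla2g12a, a secreted phospholipase, fell in both (-1.71 in KO, adjusted p = 7.36e-07, and -1.38 in WT, adjusted p = 6.04e-07).

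Of the genes that reduce or carry prostaglandins, 4 of 5 tested fell in KO, where 32.9% of all tested genes were called lower. In WT 4 of 6 fell and 1 rose, where 31.1% of all tested genes were called lower and 31.7% higher. Those that fell were the reductases Ptgr1 and Zadh2 and the transporters Slco2b1 and Abcc4, in both genotypes. Slco2a1, an uptake carrier of prostaglandins, was the 1 that rose in WT, at 13.8 to 25.9 normalized counts under DMXAA and 0 to 1.98 under DMSO; it was chosen for naming after its values were seen. It reached the minimum mean through the WT DMXAA libraries, and in KO, at 8.30 ± 5.37 under DMXAA and 4.86 ± 7.57 under DMSO (SD, n = 3 each), it was not tested, so the counts of the genotypes differ by the filter. Slco2b1, an organic anion uptake carrier, stood at 64.9 ± 11.5 normalized counts under DMXAA and 507 ± 73.5 under DMSO in KO. In WT it stood at 34.4 ± 10.7 under DMXAA and 495 ± 64.2 under DMSO (SD, n = 3 each), and its log2 change was -2.95 in KO (adjusted p = 1.03e-07) and -3.84 in WT (adjusted p = 1.81e-07). Abcc4, which exports prostaglandin E, fell in both, with a log2 change of -1.12 in KO and -1.21 in WT (adjusted p = 1.34e-07 and 3.44e-07), and Ptgr1 fell likewise, by a log2 change of -1.05 in KO and -1.19 in WT (adjusted p = 6.40e-07 and 3.69e-07). These 3 fell in the same direction as Hpgd.

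Of the leukotriene receptor genes, Cysltr1 and Cysltr2 rose under DMXAA in both genotypes, where 33.7% of all tested genes in KO and 31.7% in WT were called higher. Ltb4r1, a leukotriene B receptor, had 58.3 ± 8.75 normalized counts under DMXAA and 4.49 ± 3.16 under DMSO in KO, and reached the minimum mean there through the DMXAA libraries. In WT it had 15.2 ± 1.94 under DMXAA and 3.52 ± 2.15 under DMSO (SD, n = 3 each) and was not tested. Like Slco2a1, Ltb4r1 was named outside the rule for naming genes. Cysltr2, a cysteinyl leukotriene receptor, had 1001 ± 99.5 normalized counts under DMXAA and 24.2 ± 3.52 under DMSO in KO, and 1651 ± 82.8 under DMXAA and 106 ± 19.4 under DMSO in WT (SD, n = 3 each). Its log2 change was 5.32 in KO (adjusted p = 5.73e-10) and 3.97 in WT (adjusted p = 3.45e-09). Cysltr1 rose by 1.03 in KO (adjusted p = 1.20e-07) and by 0.93 in WT (adjusted p = 9.64e-06). In the conversion and export list, 4 of 11 tested genes rose and 5 fell in KO, and 1 rose and 4 fell in WT. Mgst3, a microsomal glutathione transferase, fell, with log2 changes of -1.35 in KO and -1.53 in WT (adjusted p = 1.18e-07 and 9.13e-09). Abcc1, the exporter of leukotriene C, fell too, with -1.13 in KO and -1.41 in WT (adjusted p = 1.25e-08 and 1.14e-08).

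Among the other prostanoid receptors, 2 of 5 tested rose and 1 fell in KO, and 1 rose and 1 fell in WT. Ptgdr2, a prostaglandin D receptor, rose by 1.34 in KO and by 1.38 in WT (adjusted p = 9.91e-05 and 1.58e-04). Ptger2, which encodes EP2, the other prostaglandin E receptor coupled to cyclic AMP, fell by 0.80 in WT (adjusted p = 3.87e-05), and its change in KO was -0.07 (adjusted p = 0.476). Of the other synthases, 1 of 7 tested rose and 2 fell in KO, and 3 of 6 rose and 1 fell in WT; Prxl2b, a prostamide and prostaglandin F synthase, fell, with -1.09 in KO and -0.66 in WT (adjusted p = 3.61e-06 and 8.25e-05). In the list of other lipoxygenases and epoxide hydrolases, 1 gene was tested in either genotype, Ephx1, which fell, with -2.93 in KO and -1.93 in WT (adjusted p = 2.37e-10 and 9.00e-09).

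**Figure D5:**
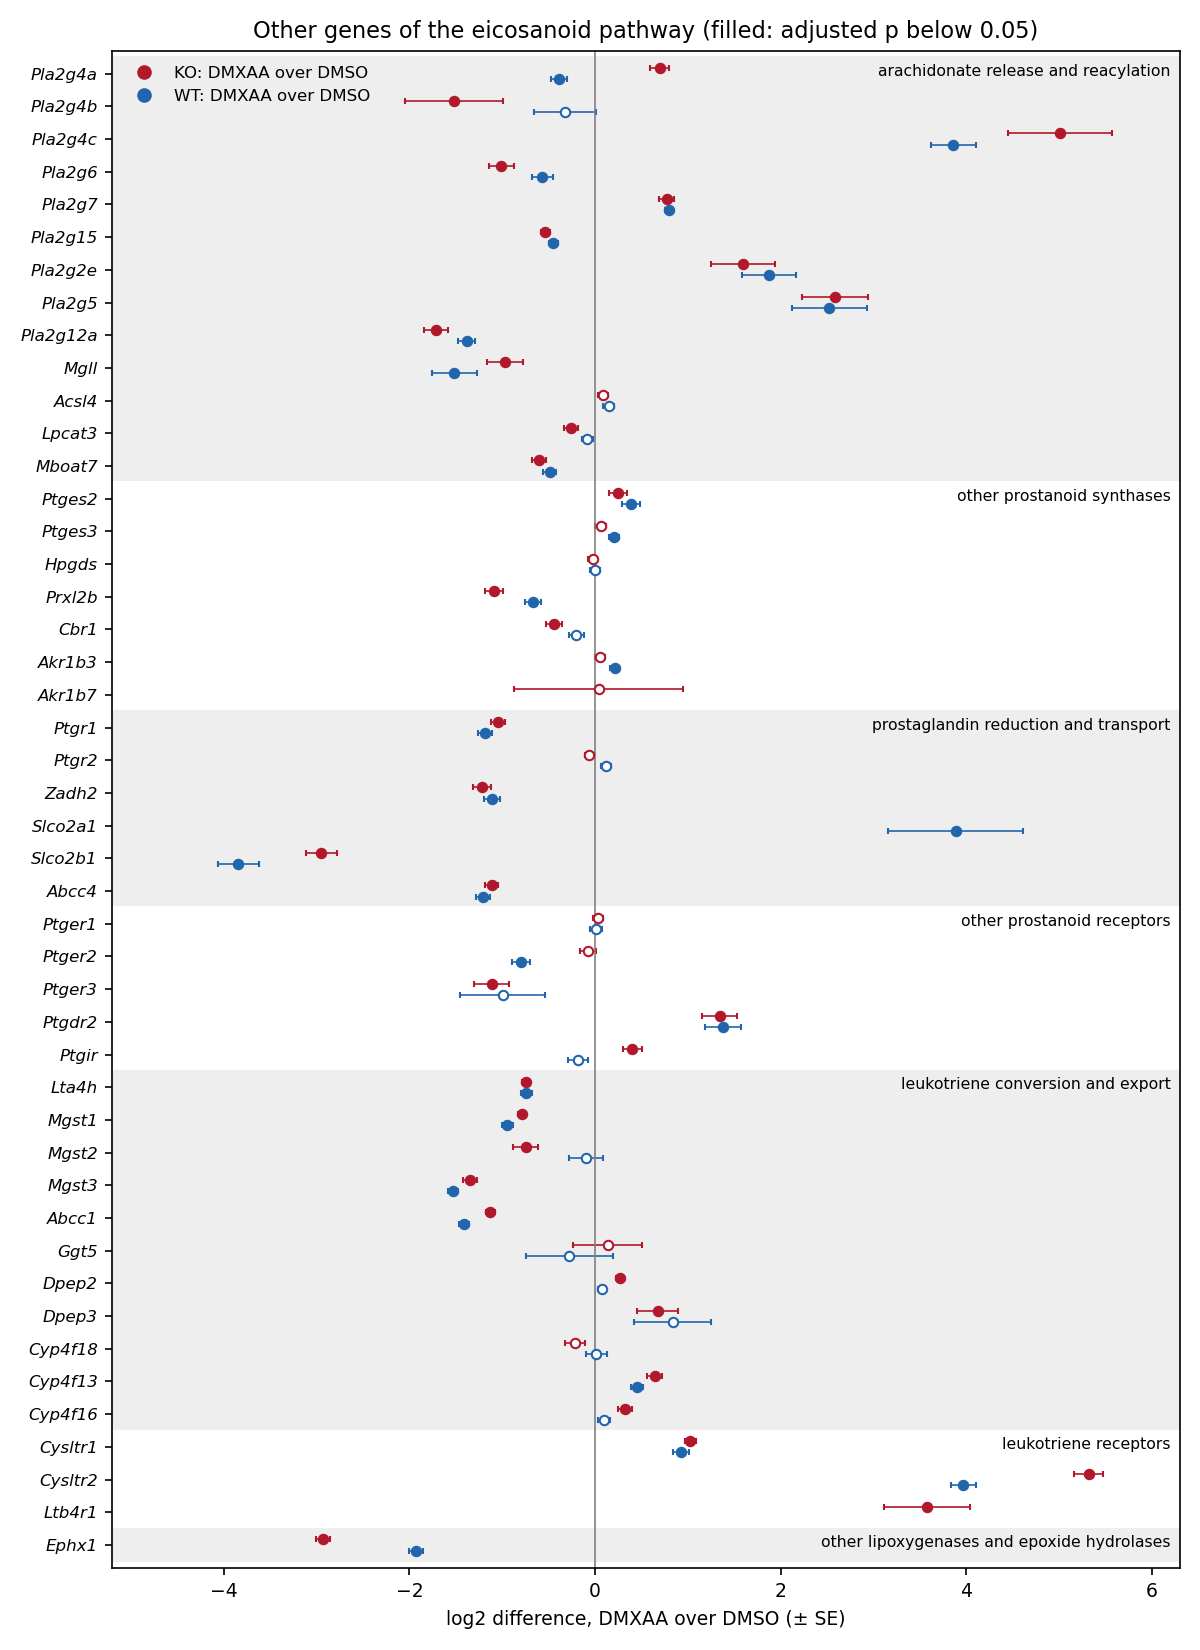
Log2 change under DMXAA, with bars of 1 SE, for the tested genes of the 7 lists in KO (red) and WT (blue); filled points passed an adjusted p below 0.05, and shading separates the lists. Cysltr1 and Cysltr2 lie to the right of 0, up to 5.32 for Cysltr2 in KO, and Slco2b1, Abcc4, Ptgr1 and Zadh2 to the left.

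KO over WT called 18 of 46 tested pathway genes under DMXAA (9 higher, 9 lower) and 12 of 43 under DMSO (6 higher, 6 lower), where 21.5% of all tested genes were called under DMXAA and 16.6% under DMSO. Ptger3, which encodes EP3, was higher in KO, at 47.2 ± 4.81 normalized counts in KO and 7.25 ± 2.35 in WT under DMXAA (log2 difference 2.58, adjusted p = 7.36e-04). With 7, 5 and 9 reads in WT under DMXAA, Ptger3 reached the minimum mean there through the KO libraries. Under DMSO it stood at 126 ± 14.1 in KO and 18.5 ± 4.52 in WT (2.72, adjusted p = 4.07e-05; SD, n = 3 each). Cysltr2 was lower in KO, with -0.77 under DMXAA (adjusted p = 1.01e-04) and -2.12 under DMSO (adjusted p = 1.31e-04). Mgll, which breaks down monoacylglycerols, was higher in KO by 1.68 under DMXAA (adjusted p = 1.69e-03) and by 1.14 under DMSO (adjusted p = 2.00e-04). Without KO DMSO replicate 1, 7 pathway genes were called under DMSO.

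Members can be expressed by other cells, so their markers were read beside them. The summed level of 5 monocyte markers was 262 to 339 RPM in KO under DMXAA, 38.4 to 41.4 in KO under DMSO, 411 to 433 in WT under DMXAA and 36.6 to 43.5 in WT under DMSO. Platelets are known for Ptgs1 and Tbxas1, and the 5 listed of 6 platelet and megakaryocyte markers summed to 3.75 to 4.31 RPM in KO under DMXAA, 6.59 to 7.22 in KO under DMSO, 6.43 to 8.88 in WT under DMXAA and 12.5 to 16.5 in WT under DMSO, with Gp9 not listed in any table. Mast cells and neutrophils are known for leukotriene genes. The 4 listed of 7 mast cell and basophil markers summed to 0.0204 to 0.229 RPM in KO under DMXAA, 0.747 to 0.814 in KO under DMSO, 0.205 to 0.317 in WT under DMXAA and 0.730 to 1.096 in WT under DMSO, with Fcer1a, Mcpt8 and Tpsb2 not listed in any table. The sum was lower under DMXAA, as were Kit and Gata2 in both genotypes. Cpa3, at 0 to 0.151 RPM over all groups, overlapped between DMXAA and DMSO in both genotypes, and Prss34 overlapped in WT. Cpa3, Prss34 and, under DMXAA, Kit and Gata2 rest on few reads, as 3 reads make 0.0306 to 0.0377 RPM. The 8 listed of 9 neutrophil markers summed to 0.774 to 0.834 RPM in KO under DMXAA, 0.744 to 1.28 in KO under DMSO, 2.72 to 3.09 in WT under DMXAA and 5.504 to 7.84 in WT under DMSO, with Elane not listed in any table. Among them S100a9 was lower in KO, at 0.0408 to 0.0425 RPM in KO and 0.994 to 1.21 in WT under DMXAA, and 0.0225 to 0.275 in KO and 2.09 to 2.64 in WT under DMSO. Fibroblast and stromal markers summed to 0.499 to 0.850 RPM in KO under DMXAA, 0.631 to 5.58 in KO under DMSO, 0.130 to 0.452 in WT under DMXAA and 0.185 to 0.564 in WT under DMSO. The summed level of the 6 dendritic markers was higher under DMXAA. It was 5.05 to 6.18 RPM in KO under DMXAA, 0.520 to 0.639 in KO under DMSO, 5.36 to 5.45 in WT under DMXAA and 0.224 to 0.843 in WT under DMSO. Most of that sum was Xcr1, at 3.80 to 4.84 RPM in KO and 3.82 to 4.18 in WT under DMXAA, while Cd209a and Siglech were at 0 under DMXAA. Xcr1 and Clec9a were called higher under DMXAA in both genotypes. Flt3 and Zbtb46 overlapped between DMXAA and DMSO in both genotypes and were not tested. T and NK cell markers reached at most 0.0650 RPM. The macrophage markers did not move together. Lyz2 stood at 2110 to 2150 RPM in KO and 3911 to 4099 in WT under DMXAA. Under DMSO it stood at 6737 to 7398 RPM in KO and 10452 to 11212 in WT. In both genotypes Lyz2, Adgre1, Csf1r, Itgam and Cd14 were called lower under DMXAA, and Cd68 and Fcgr1 higher. The log2 change of Fcgr1 was 3.84 in KO and 3.31 in WT. Mertk was called lower in KO and not called in WT. The part of these marker differences, and of the lower macrophage marker sum, in the member changes was not tested.

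The genes whose profile lay nearest to each member over the 12 libraries were found by the root mean square distance of centred log2 RPM among 10315 genes with a mean of at least 100. Alox5 and Ptgs2 lie under that mean. The nearest to Ptgs1 were Itga6 and Ltbp2 (distances 0.12 and 0.12 on the log2 scale), to Ltc4s Ksr1 and Pde2a (0.19 and 0.23), and to Ptges Slc7a1 and H2bc21 (0.17 and 0.17). Tbxas1 lay nearest to Cap1 and Fam129b (0.08 and 0.08), Alox5ap to Srf and Utp18 (0.06 and 0.06), and Ptger4 to Nom1 and Ttf2 (0.06 and 0.06). The nearest to Hpgd, Bmp2 and Atp2b4, lay 0.61 and 0.62 away. The distances of different members are not comparable with each other, since a member that varies little is close to many genes.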

How the data were processed

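RNA-seq of 12 libraries (4 groups of 3) was read from 4 tables. Per the submitters' processing notes, reads were aligned with HISAT2 to mm10 and counted with featureCounts (no version is given in the sources used here); per the labels, libraries were strand-specific mRNA libraries and carry one batch label. The values deposited by the authors are a signal, normalized counts scaled within each table of 6 libraries. Divided by the smallest step of its library, 100% of values came out as whole reads within 0.01, and they were identical in both tables with that library; edgeR 4.0.16 and DESeq2 1.42.0 were run on these reads as alternatives. The deposited comparison tables of the authors give log2 fold changes, p-values and adjusted p-values, and a score column, the test statistic.

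For each comparison, the table with both groups was fitted by limma 3.58.1 (lmFit, eBayes with trend; R 4.3.3) on log2(normalized count + 1), keeping genes whose mean reached 10, two-sided, with Benjamini-Hochberg adjustment over all tested genes; every adjusted p is from this fit unless another source is named. The interaction is KO over WT under DMXAA minus that under DMSO over 12 libraries. Errors of log2 values are standard errors. RPM are reads per M (mega) listed reads. Exon lengths and positions are from GENCODE vM21, matched for 16067 symbols (97.3%). Overlap of unlisted genes on the opposite strand with Ptgs1, Tbxas1, Alox5ap, Ltc4s and Ptger4 was not resolved. The scripts were tested on simulated data. Named are the 9 members, Mgmt, in each pathway list the 3 tested genes with the smallest p in DMXAA over DMSO in WT and the 3 with the smallest p in KO over WT under DMSO, and the 2 nearest profiles of each member; not all are printed. Of the pathway genes, Slco2a1 and Ltb4r1 were named outside this rule. The members, lists and tests were chosen with earlier results of these data known. Fam213b and Prxl2b are symbols of the same gene. Read numbers limit precision for Ptgs2 and Alox5.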

Additional observations from a re-analysis of the deposited data

Results flagged for a closer look

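The response to DMXAA differed between KO and WT in the test of the interaction (limma, adjusted p below 0.05 over 12263 genes, of which 8.97% passed) for 2 members and 6 other pathway genes. Values are log2 interactions, the change under DMXAA in KO minus that in WT. Tbxas1 had 0.67 (adjusted p = 4.77e-05), with a change of 0.10 in KO and -0.58 in WT. Ptgs1 had 0.45 (adjusted p = 0.012), with -1.81 in KO and -2.26 in WT.

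Pla2g4a, the cytosolic phospholipase A that releases arachidonate, had 1.08 (adjusted p = 0.00032): it rose by 0.70 in KO and fell by 0.39 in WT. In KO over WT, Pla2g4a was already lower under DMSO (log2 difference -0.84, adjusted p = 3.38e-04). Under DMXAA it was higher in KO by 0.24 (adjusted p = 0.0454), a call that did not hold in every setting tried (adjusted p up to 0.162). Cysltr2 had 1.36 (adjusted p = 0.000826) and rose by 5.32 in KO and by 3.97 in WT. Ptger2 had 0.72 (adjusted p = 0.00144), with -0.07 in KO and -0.80 in WT. Ptgir, the prostacyclin receptor gene, had 0.59 (adjusted p = 0.0122), with 0.40 in KO and -0.19 in WT. Abcc1 had 0.29 (adjusted p = 0.0209), with -1.13 in KO and -1.41 in WT; it did not pass without WT DMSO replicate 2, WT DMXAA replicate 2, KO DMSO replicate 1 or KO DMXAA replicate 3, or with the same total (0.22, adjusted p = 0.0794). Ephx1, an epoxide hydrolase, had -0.999 (adjusted p = 4.09e-05), with -2.93 in KO and -1.93 in WT.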

How the results depend on the processing

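Among 43 member values, pseudocounts of 10 or 0.5, no filter, a minimum mean of 50, edgeR, DESeq2, other scales, the replicate block and leaving out each library in turn were tried. The larger member changes kept their direction and call: Hpgd, Alox5, Ptgs1, Ltc4s and Ptges in both DMXAA comparisons, and Ptgs2, Tbxas1 and Ltc4s in KO over WT under DMSO. Alox5 in WT reached the minimum mean through the DMSO libraries, so its call there is read as a description. Its change in WT was -3.84 in the main fit and -2.77 with a pseudocount of 10. Values near 0 turned sign. For DMXAA in WT, Ptger4 was -0.0031 with edgeR, -0.31 with the same total, -0.097 with the same upper quartile and -0.045 to 0.067 without single libraries, and Akr1b3 was -0.10 with the same total. For DMXAA in KO with the same total, Ptgs2 was -0.31, Tbxas1 -0.29, Alox5ap -0.34 and Ptges2 -0.14; with the same upper quartile Ptgs2 was -0.058, Tbxas1 -0.027 and Alox5ap -0.074; Ptgs2 was -0.18 to 0.44 without single libraries. For KO over WT under DMSO, Alox5ap was -0.00034 with edgeR, -0.0025 with the same upper quartile and -0.027 to 0.028 without single libraries, Ptger4 was -0.081 to 0.032 without single libraries and Abcc4 -0.098 to 0.0059 likewise. The interaction of Ltc4s was -0.39 to 0.028 without single libraries. The cause was not tested. Calls near the threshold changed too. For KO over WT under DMXAA, Alox5ap with the same total (0.18, adjusted p = 0.0566) and, with no filter, Ltc4s (0.65, adjusted p = 0.0518) and Ptger4 (-0.22, adjusted p = 0.0512) did not pass. For DMXAA in WT, Alox5ap passed with edgeR, DESeq2, both other scales, a pseudocount of 10 and a minimum mean of 50 (adjusted p 9.73e-05 to 0.0496). Leaving out single libraries gave 2 to 6 members called for KO over WT under DMXAA, and 7 to 11 pathway genes for KO over WT under DMSO.

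The labels give no shared source for replicate numbers, and same-number libraries did not deviate together (correlations -0.036 to 0.066). With the replicate block 7 members were called for DMXAA in WT, 6 in KO, 6 for KO over WT under DMXAA, 3 under DMSO and 2 for the interaction. The library names carry numerals that the DMXAA and DMSO libraries share in part (correlations of the shared numerals -0.018 to 0.022). With the replicate block by these numerals, 7 members were called for DMXAA in KO and 7 in WT: Tbxas1 in KO then passed as higher (0.16, adjusted p = 0.0489). Ptgs2 and Alox5 are limited by depth, at 35 reads or fewer in 3 groups for Ptgs2 and 16 or fewer under DMXAA for Alox5.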
